A study of Homo sapiens with 2 samples.

Results

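Glycolysis turns glucose into pyruvate and lactate, and 10 of its enzymes were followed here in the order in which they act: HK1, HK2, GPI, PFKP, ALDOA, GAPDH, PGK1, ENO1, PKM and LDHA. They were chosen by gene symbol, and each had 1 row among the 60649 rows of the count table, so 10 of 10 were found. All 10 passed the minimum of 20 summed counts, with 189 to 6134 counts in the first library and 83 to 769 in the other. Background knowledge divides the pathway into an early part, in which hexokinase, phosphoglucose isomerase and phosphofructokinase prime the sugar at the cost of ATP, and a late part, in which glyceraldehyde phosphate dehydrogenase, phosphoglycerate kinase, enolase and pyruvate kinase return ATP and NADH. Aldolase splits the sugar between these parts, and lactate dehydrogenase regenerates the NAD+ that the dehydrogenase step uses. Breast cancer cells commonly run this pathway at a high rate even when oxygen is present, and the mRNAs of its late enzymes are among the most abundant in cultured cells.

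The RNA came from RNA immunoprecipitation (RIP), in which an antibody recovers a protein with the RNA attached to it. Both libraries were from MDA-231 cells, an established line of triple-negative breast cancer, of genotype wt, kept for 16 h without serum in the presence of the P4G11 antibody against beta-1 integrin (an antibody E7-s is also listed, in a role that the labels do not explain). One library was made with an antibody against MT1-MMP, a protease anchored in the cell membrane (the sample title reads MMP1, the design text MT1-MMP), and the other with rabbit IgG as a mock (its cell line tag reads MDA-232). There was 1 library of each kind, both carry the antibody treatment, and no untreated or input RNA was analysed here. Without replicates no test between conditions was possible: every interval below is an exact 95% interval for counting error alone, and every difference is one between 2 libraries.

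The 2 libraries differ in makeup, which bears on every value. Totals were 31636000 counts in the MT1-MMP RIP and 13003668 in the IgG library, of which a block of 28 ribosomal RNA rows took 10.2% and 92.6%. Counts were therefore compared on the scale of trimmed mean of M-values (TMM), which places the typical row at a log2 ratio of 0. On it a ratio of 1 corresponds to 45.9 MT1-MMP counts for each IgG count, and a gene was called higher in a library when its whole interval lay beyond 2-fold. On the scale of CPM, counts scaled to equal library totals, every log2 ratio is 4.24 larger, and on that of totals outside the ribosomal block 0.64 larger. MDA-231 markers were present in both libraries (8 of 8 above 0, together 41190 and 1879 counts). Blood cell markers had 62 and 1 counts in all and fibroblast markers 100 and 13, with COL3A1 at 0 in both. Of 9 luminal epithelial markers 9 and 5 were above 0 (1805 and 249 counts). KRT8 had 1051 and 170, ESR1 369 and 3, GATA3 159 and 3, KRT18 50 and 72, and EPCAM 46 and 1. CDH1, PGR, FOXA1 and ESRP1 had 17 to 64 MT1-MMP counts and 0 IgG counts. MMP14, the mRNA of the RIP target, had 367 and 134 counts. On the TMM scale its log2 ratio of MT1-MMP to IgG was -4.07 (interval -4.36 to -3.77). MMP14 was thus called higher in the IgG library on that scale, while by CPM its log2 ratio was 0.17.

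The enzymes of the early steps had the lowest IgG counts of the set, from 83 to 163. The median tested protein-coding gene had 12.0 in that library. HK1, the broadly expressed hexokinase that traps glucose in the cell as its phosphate, had 3071 MT1-MMP counts and 83 IgG counts. HK2, the inducible hexokinase found in many tumours, had 2628 and 88. GPI, which converts the glucose phosphate into its fructose isomer, had 3352 and 163. PFKP, the platelet-type phosphofructokinase that catalyses the committed step, had 6079 and 135. These 4 genes held the 4 highest ratios of the set.

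ALDOA and GAPDH, which follow, were the only members of the 10 with fewer MT1-MMP than IgG counts. ALDOA, the aldolase that splits the hexose bisphosphate, had 189 MT1-MMP counts and 213 IgG counts, close to equal in libraries whose totals were not. GAPDH, which oxidises the triose phosphate and yields NADH, had 286 and 661. By counts not corrected for length GAPDH took rank 28 among the tested protein-coding genes in the IgG library and rank 8075 in the MT1-MMP library.

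In the steps after GAPDH both counts were large. PGK1, which makes the first ATP of the pathway's return phase, had 2860 MT1-MMP counts and 230 IgG counts. ENO1, the enolase that forms phosphoenolpyruvate, had 2315 and 646. PKM, the pyruvate kinase gene, had 6134 and 769, the most of the 10 in each library. LDHA, the lactate dehydrogenase subunit favoured by glycolytic cells, had 1792 and 395. The plot of counts along the pathway shows the order of the libraries turned over at ALDOA, by a small margin, and at GAPDH.

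On the TMM scale 6 of the 10 enzymes were called higher in the IgG library, ALDOA, GAPDH, PGK1, ENO1, PKM and LDHA, and 0 in the MT1-MMP RIP; no p-value can be given for this. Over the 14318 protein-coding genes tested, 16.2% were called higher in the IgG RIP and 7.24% in the other. Those genes had a median of 12.0 IgG counts, against 83 to 769 for the enzymes. Few counts give wide intervals and so fewer calls, and the share among genes of like counts was not computed. GAPDH had the lowest log2 ratio of MT1-MMP to IgG, -6.73 (95% interval -6.93 to -6.53), a 106-fold difference, and 0.244% of the tested protein-coding genes lay below it. ALDOA followed at -5.69 (-5.98 to -5.40), with 0.887% of genes below it.

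The other 4 called enzymes lay closer to 0. Their log2 ratios were -3.68 (-3.81 to -3.55) in ENO1, -3.34 (-3.50 to -3.18) for LDHA, -2.53 (-2.63 to -2.41) for PKM and -1.89 (-2.08 to -1.68) for PGK1. The early enzymes were called in neither direction. GPI was just outside the call, at -1.16 with an interval of -1.39 to -0.92 that reached inside 2-fold, and PGK1 was the closest of the called ones. HK2 had a log2 ratio of -0.63 (-0.93 to -0.30), HK1 of -0.32 (-0.63 to 0.02) and PFKP of -0.03 (-0.27 to 0.23), a value that 47.4% of protein-coding genes lay below.

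Over the 10 enzymes the median log2 ratio was -2.21, from -6.73 to -0.03, against 0.05 over all tested protein-coding genes (quartiles -1.28 and 1.0). The direction of PGK1, ENO1, PKM and LDHA rests on the scale. By CPM only ALDOA (-1.45, interval -1.75 to -1.17) and GAPDH (-2.49, -2.70 to -2.29) were called higher in the IgG library, where 0.691% of protein-coding genes were. HK1, HK2, GPI, PFKP, PGK1 and PKM were then called higher in the MT1-MMP library, as were 86.1% of protein-coding genes, and ENO1 and LDHA in neither. With totals outside the ribosomal block the same 6 enzymes as under TMM were called higher in the IgG RIP and 0 in the other, against 11.2% and 17.8% of protein-coding genes. ALDOA and GAPDH were thus on the IgG side of all 3 scales.

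The difference between 2 enzymes does not depend on the scale, since any scale shifts both alike. Dividing the MT1-MMP to IgG count ratio of an enzyme by that of the next one gave 9 comparisons in pathway order, of which 8 had a 95% interval without 1, and 7 did with intervals widened for the 9 comparisons together. HK1 and HK2, isozymes of the same step, were the pair whose interval included 1 (ratio of ratios 1.24, 95% interval 0.903 to 1.70), so their order was not settled, and a difference of up to 1.70-fold was not excluded by counting error. HK2 lay 1.45-fold (1.11 to 1.91) above GPI, an interval that reached 0.996 when widened. PFKP lay 2.19-fold (1.73 to 2.78) above GPI.

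The largest step along the pathway was from PFKP to ALDOA. The ratio of PFKP was 50.6-fold (38.8 to 66.3) that of ALDOA, and ALDOA was 2.05-fold (1.60 to 2.63) above GAPDH. From GAPDH to PGK1 the ratio went up again by 28.7-fold (23.6 to 35.0), the second largest step. PGK1 exceeded ENO1 by 3.47-fold (2.95 to 4.09), PKM exceeded ENO1 by 2.23-fold (1.98 to 2.50) and PKM exceeded LDHA by 1.76-fold (1.54 to 2.01). The ratio therefore did not change steadily along the pathway: it was highest from HK1 to PFKP, lowest at ALDOA and GAPDH, and between these levels from PGK1 to LDHA.

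Ordered by ratio, the enzymes ran PFKP, HK1, HK2, GPI, PGK1, PKM, LDHA, ENO1, ALDOA and GAPDH. Neighbours at the top of this order were not told apart by counting error: PFKP over HK1 gave 1.22 (0.911 to 1.62) and HK1 over HK2 the 1.24 above. The remaining 7 neighbours differed, the smallest difference being LDHA over ENO1 (1.27, 1.10 to 1.46). Over all 45 pairs, 43 had an interval without 1 and 32 an interval wholly beyond 2-fold.

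The same counts can be given as shares of the 10 genes' counts within each library, which needs no scale between libraries. The groups below are runs of steps that also hold the highest, lowest and intermediate ratios. Their shares therefore had to differ in this way and add no separate support. HK1, HK2, GPI and PFKP together held 52.7% (95% exact interval 52.1 to 53.3) of the enzymes' counts in the MT1-MMP RIP and 13.9% (12.7 to 15.1) in the IgG library. ALDOA and GAPDH held 1.65% (1.51 to 1.81) and 25.8% (24.4 to 27.3). PGK1, ENO1, PKM and LDHA held 45.6% (45.1 to 46.2) and 60.3% (58.6 to 62.0).

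Single genes moved between these shares to different degrees. PFKP made up 21.2% (20.7 to 21.7) of the enzymes' counts in the MT1-MMP RIP and 3.99% (3.36 to 4.71) in the IgG library. GAPDH made up 0.996% (0.885 to 1.12) and 19.5% (18.2 to 20.9). PKM kept nearly the same share, 21.4% (20.9 to 21.8) and 22.7% (21.3 to 24.2), with intervals that overlapped, and it was the one enzyme of the 10 for which they did. All 10 together were 28706 MT1-MMP counts, 0.0907% of that library, and 3383 IgG counts, 0.0260%. Outside the ribosomal block these shares were 0.101% (0.09991 to 0.1022) and 0.351% (0.3396 to 0.3633), so which library gave the enzymes more room depended on whether ribosomal RNA was counted.

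**Figure D1:**
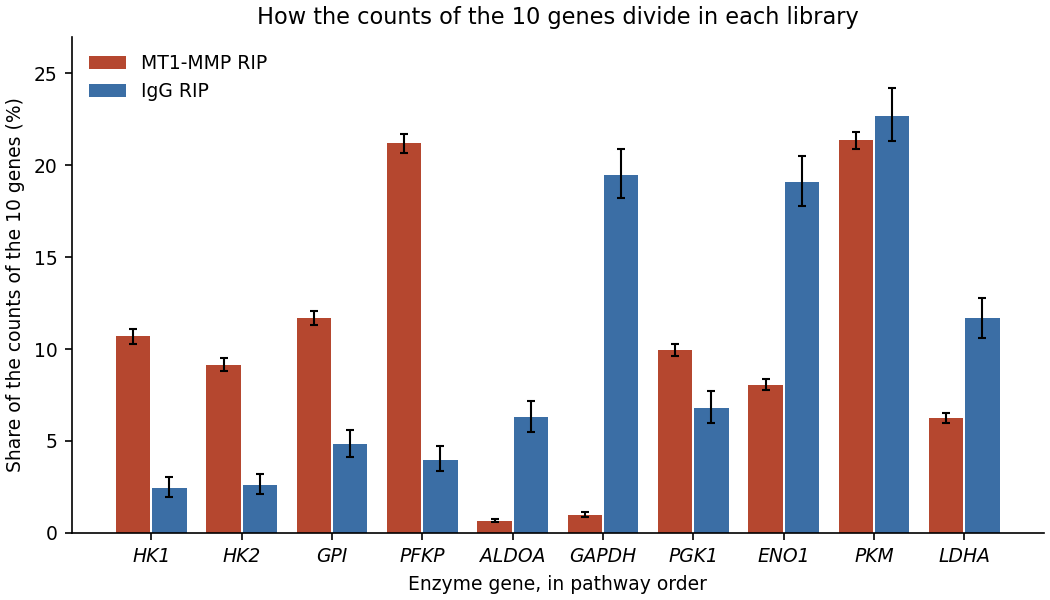
Share of each enzyme gene in the summed counts of the 10 genes (percent), in the MT1-MMP library (red bars, 28706 counts) and the IgG library (blue bars, 3383 counts), with exact 95% intervals for counting error. PFKP takes 21.2% and 3.99%, GAPDH 0.996% and 19.5%, and PKM is the gene whose intervals overlap.

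The enzymes' genes differ widely in span, the distance from gene start to end with introns included, and the ratio followed it closely. On GRCh38 the shortest was GAPDH (chromosome 12, 6534517 to 6538371, plus strand, 3.85 kb) and next was ALDOA (chromosome 16, 30064279 to 30070420, plus strand, 6.14 kb). LDHA (chromosome 11, 18394563 to 18408425, plus strand) spans 13.9 kb and ENO1 (chromosome 1, 8861000 to 8878686, minus strand) 17.7 kb. PGK1 (chromosome X, 78104248 to 78129295, plus strand) spans 25.0 kb, PKM (chromosome 15, 72199029 to 72231591, minus strand) 32.6 kb and GPI (chromosome 19, 34359718 to 34402413, plus strand) 42.7 kb. The longest were HK2 (chromosome 2, 74834127 to 74893359, plus strand, 59.2 kb), PFKP (chromosome 10, 3067548 to 3136805, plus strand, 69.3 kb) and HK1 (chromosome 10, 69270000 to 69401882, plus strand, 132 kb).

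Across the 10 enzymes Spearman's coefficient between span and log2 ratio was 0.96 and Pearson's r on log2 span 0.97. These are descriptions over genes that share the same pair of libraries, and genes are not independent replicates. Without HK1 and GAPDH, the longest and the shortest, Spearman's coefficient was 0.95 over the other 8, and over the 14318 tested protein-coding genes it was 0.62. MT1-MMP counts went up with span among the enzymes (Spearman's coefficient 0.77) and IgG counts went down (Spearman's coefficient -0.72). Without HK1 and GAPDH these coefficients were 0.76 and -0.57, so the IgG trend was the weaker of them.

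Set against genes of like span, all 10 enzymes still lay below the middle. The protein-coding genes were divided by span into 10 classes of equal size, and the median log2 ratio of an enzyme's own class was subtracted. The log2 ratio minus that median was -4.0 for GAPDH and -2.96 for ALDOA, although that class, of genes up to 6.68 kb, had the lowest median, -2.73, and 55.5% of its genes were called higher in the IgG library. The difference was -2.70 for ENO1, -2.36 for LDHA, -2.32 for PKM and -1.45 for PGK1. It was -1.31 for HK1, -1.21 for GPI, -1.01 for HK2 and -0.42 for PFKP. The median of the 10 differences was -1.89, where -2.21 was the median without regard to span. The part of span or of transcript abundance in these ratios was not tested.

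How alike the enzymes were in a library depended on whether counts were divided by span. Undivided counts ranged 32.5-fold in the MT1-MMP library and 9.27-fold in the IgG library, and per kilobase of span the order of these ranges was the opposite. MT1-MMP levels ran from 0.736 CPM per kb for HK1 to 5.95 for PKM, an 8.09-fold range. IgG levels ran from 0.0484 CPM per kb for HK1 to 13.2 for GAPDH, a 272-fold range. The SD of the log2 levels per kb was 0.97 and 2.55 over the 10 enzymes, against 1.83 and 2.47 over the 13011 tested protein-coding genes with counts in both libraries. Exon lengths were not used here, so these are levels per length of gene and not of mRNA. In RNA from bulk cells, fewer cells with a transcript and less of it per cell cannot be told apart.

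In the MT1-MMP library the order per kb was HK1 (0.736), ALDOA (0.973), HK2 (1.40), GAPDH (2.35), GPI (2.48), PFKP (2.77), PGK1 (3.61), LDHA (4.09), ENO1 (4.14) and PKM (5.95), all in CPM per kb of span. GAPDH, with the lowest ratio of the set, was thus in the middle of the MT1-MMP levels per kb, between HK2 and GPI. In the IgG library the order was HK1 (0.0484), HK2 (0.114), PFKP (0.150), GPI (0.294), PGK1 (0.706), PKM (1.82), LDHA (2.19), ALDOA (2.67), ENO1 (2.81) and GAPDH (13.2). ALDOA moved from the second lowest place to the third highest between the 2 orders.

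Several enzymes have processed pseudogenes, intronless copies of their mRNA inserted elsewhere in the genome, and those of GAPDH held more MT1-MMP counts than GAPDH itself. There were 85 such rows in all, each classed as a pseudogene in RefSeq, with 895 MT1-MMP and 28 IgG counts. GAPDH alone had 65, of which 41 were above 0 and 12 reached 20 summed counts. Together they held 766 MT1-MMP counts, 268% of those of GAPDH itself, and 15 IgG counts, 2.27% of its own.

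The GAPDH copies thus divided between the libraries in another way than their parent. Their summed log2 ratio was 0.11 (-0.58 to 1.0), close to the typical row, and it exceeded that of GAPDH by 118-fold (69.3 to 215). GAPDHP55 had the most, 180 MT1-MMP and 0 IgG counts, then GAPDHP61 with 133 and 0 and GAPDHP62 with 77 and 1. Without these 3 rows the summed log2 ratio of the others was -0.82 (-1.54 to 0.11), and they still exceeded GAPDH, by 61.9-fold (35.6 to 116). With all its copies added to the parent, GAPDH had 1052 and 676 counts and a log2 ratio of -4.88 (-5.02 to -4.74). ALDOA was then below GAPDH rather than above it (ratio of ratios 0.576, 0.461 to 0.721).

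For the other enzymes the copies added little. Those of ENO1 had 49 and 2 counts, of PGK1 41 and 1 and of LDHA 30 and 10, in each case at most 2.53% of the parent's count in a library. Those of PKM, ALDOA and HK2 had 6, 2 and 1 MT1-MMP counts and 0 IgG counts. No row of this kind was found for HK1, GPI or PFKP. How reads that match more than 1 place were counted is not given in the labels, so the source of the reads in the GAPDH copies was not tested.

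No RefSeq gene with a row of its own overlapped an enzyme with 10% of its counts or more: MIR6728 inside ENO1 had 15 and 36 counts and RPS15AP28 inside HK1 had 1 and 0. RefSeq places LOC112694756 over nearly all of ALDOA (30053151 to 30070414), under a name that no row carried. Rows under clone names, for which no position was used here, stood next to 5 of the enzymes in the table with at least 10% of their counts in a library. CTD-2515O10.6, beside ALDOA, had 328 and 216 counts, RP5-940J5.9 beside GAPDH 120 and 335, and RP11-618P17.4 beside GPI 1541 and 50. The row beside PFKP had 324 and 36, and RP5-1000K24.2 beside PGK1 had 431 and 4. Whether such a row shares reads with the enzyme was not tested. HK1, HK2, ENO1, PKM and LDHA had no such neighbour. Of these 5, ENO1, PKM and LDHA were called higher in the IgG library on the TMM scale, as were 16.2% of all tested protein-coding genes.

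Hypoxia-inducible factor 1 switches on many of these enzymes through promoter elements with the core ACGTG, and MYC through the E-box CACGTG. The RefSeq promoters of GRCh38.p14, each 250 bases before to 50 after a transcript start, were searched for both on either strand, using for each gene the most upstream promoter in the table. For GPI, PFKP, GAPDH and PKM that promoter belongs to a start inside the gene, downstream of the gene start given above, and for the other 6 to the gene start itself. The core was found in 6 of the 10 enzymes, HK2, GPI, ALDOA, GAPDH, PGK1 and LDHA, and in 25.5% of the 11551 tested protein-coding genes with a promoter in the table (21.6% of all 27305). The E-box, which holds the core on both strands and was counted as 2 matches of it, was found in GAPDH and LDHA and in 9.46% of those genes. Matches stood in 4 of the 6 enzymes called higher in the IgG library and in 2 of the other 4. A match is a run of letters and not a site shown to be bound. Only these exact runs were searched, so a promoter without a match is not shown to lack such elements. The promoters of the enzymes with the lowest ratio, the most core matches and the highest ratio are shown, with the core in capitals, as GAPDH (chr12:6535014-6535313, plus strand, 2 matches), LDHA (chr11:18394313-18394612, plus strand, 5 matches) and PFKP (chr10:3067720-3068019, plus strand, 0 matches).
GAPDH: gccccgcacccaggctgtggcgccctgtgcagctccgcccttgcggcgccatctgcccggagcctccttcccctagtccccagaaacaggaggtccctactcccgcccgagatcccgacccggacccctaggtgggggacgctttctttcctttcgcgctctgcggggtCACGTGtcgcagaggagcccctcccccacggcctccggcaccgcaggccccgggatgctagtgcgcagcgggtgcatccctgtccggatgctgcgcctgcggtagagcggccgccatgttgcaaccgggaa
LDHA: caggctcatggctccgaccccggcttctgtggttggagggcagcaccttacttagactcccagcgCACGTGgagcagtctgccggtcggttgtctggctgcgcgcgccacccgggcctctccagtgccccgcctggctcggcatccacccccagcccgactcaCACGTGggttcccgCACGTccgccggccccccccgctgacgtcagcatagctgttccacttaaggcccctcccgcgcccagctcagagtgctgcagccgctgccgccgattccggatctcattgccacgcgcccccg
PFKP: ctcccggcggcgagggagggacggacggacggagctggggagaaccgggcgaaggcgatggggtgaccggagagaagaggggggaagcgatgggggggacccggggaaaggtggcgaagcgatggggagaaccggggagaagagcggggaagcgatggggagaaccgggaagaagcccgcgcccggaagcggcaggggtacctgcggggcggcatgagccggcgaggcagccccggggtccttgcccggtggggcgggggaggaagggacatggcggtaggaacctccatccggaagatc

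The other isozymes of the same reactions, and the steps not among the 10, were measured as well. Of 20 such genes 15 reached the minimum, 5 were called higher in the IgG RIP and 0 in the other, and the median log2 ratio was -0.02. The shares called over all tested protein-coding genes were 16.2% and 7.24%. TPI1, the triose phosphate isomerase, had 58 MT1-MMP and 152 IgG counts (log2 ratio -6.90, -7.37 to -6.47), though SPSB2 overlaps it. Of its neighbours in the pathway, GAPDH (-6.73) was close to it and ALDOA (-5.69) lay above. PGAM1, the mutase between PGK1 and ENO1, had 227 and 114 (-4.53, -4.86 to -4.19). The other 3 called were PFKL, ENO2 and ENO3. LDHB, the heart-type lactate dehydrogenase subunit, had 4562 and 100 (-0.02, -0.29 to 0.29), and ADPGK, an ADP-dependent glucokinase, 956 and 15 (0.43, -0.26 to 1.32).

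Isozymes of the same step could lie far apart. Of 6 isozyme pairs compared, the LDHB ratio was 10.1-fold (7.99 to 12.7) that of LDHA, on 100 and 395 IgG counts, and the PFKP ratio was 9.40-fold (6.51 to 13.4) that of PFKL, the liver-type phosphofructokinase, which had 244 and 51 counts. PFKP and PFKM, the muscle type with 286 and 9 counts, were not told apart (1.42, 0.628 to 2.81), and neither were ENO2, the neuronal enolase with 141 and 26 counts, and ENO1 (ENO2 over ENO1 1.51, 0.980 to 2.42). HK1 and HK2 were the third such pair. ALDOC, with 8 and 0 counts, was below the minimum; its interval against ALDOA gave only a lower bound of 1.89-fold.

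Regulators of the pathway lay on both sides. Of 11 tested, 1 was called higher in the MT1-MMP RIP and 2 in the IgG RIP, with a median of 0.62. Over all tested protein-coding genes the shares called were 7.24% and 16.2%. The one was HIF1A, the oxygen-regulated subunit of the factor named above, with 31162 and 239 counts (1.50, 1.32 to 1.70; HIF1A-AS3 overlaps it). The 2 were TXNIP, which restrains glucose uptake (233 and 79 counts, -3.97, -4.33 to -3.57), and MYC (321 and 49, -2.82, -3.25 to -2.34). PFKFB3, which makes the sugar bisphosphate that activates phosphofructokinase, had 5874 and 83 (0.62, 0.31 to 0.95) and was not called.

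At the borders of the pathway calls again went both ways. Over all tested protein-coding genes the shares called were 7.24% for the MT1-MMP RIP and 16.2% for the IgG RIP. Of 13 tested glucose, lactate and pyruvate transporters 1 was called higher in the MT1-MMP RIP and 2 in the IgG RIP (median 0.10). SLC2A1, the glucose transporter GLUT1, had 6896 and 140 counts (0.10, -0.14 to 0.35), like PFKP next to the typical row. SLC16A3, which exports lactate, had 2128 and 188 (-2.02, -2.24 to -1.80; CSNK1D overlaps it), and BSG, its chaperone, 184 and 83 (-4.38, -4.75 to -3.98). SLC2A13, a proton-coupled inositol transporter of the same family, was the one on the other side (2584 and 9, 2.57, 1.72 to 3.78). Of 11 tested genes of the pyruvate dehydrogenase complex and its regulators, PDK1, a kinase that switches the complex off, was called higher in the MT1-MMP library (4889 and 37 counts, 1.51, 1.06 to 2.03), and PDHB, a subunit (89 and 29, -3.92, -4.52 to -3.25), and PDK2 (47 and 9, -3.20, -4.18 to -1.92) in the IgG library. PDHX, another component, had 1785 and 21 (0.86, 0.27 to 1.58).

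The pentose phosphate pathway, which branches off after hexokinase, had 5 of 10 tested genes called higher in the IgG RIP and 0 in the other, with a median of -1.55. The shares called over all tested protein-coding genes were 16.2% and 7.24%. PGD, a dehydrogenase of its oxidative branch, had 236 and 47 counts (-3.20, -3.65 to -2.71). TKT, the transketolase that returns carbon to glycolysis, had 2009 and 111 (-1.35, -1.62 to -1.05). PGLS and TALDO1 were also called. RPE, an epimerase, had 1681 and 20 (0.84, 0.24 to 1.59).

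Over these lists and those of gluconeogenesis and glycogen metabolism, 97 genes in all, 79 reached the minimum, 21 were called higher in the IgG RIP and 4 in the other, beside the 16.2% and 7.24% over all protein-coding genes. Their median log2 ratio was -0.21, and 42 of the 79 lay below the median of their own span class, where 10 of the 10 enzymes did. Spearman's coefficient between span and log2 ratio was 0.65 over the 79 genes. In RefSeq, other genes overlap PFKM (SENP1), PFKFB3 (LINC02649), SLC2A13 (C12orf40), PDHX (APIP), PDK1 (RAPGEF4-AS1), PDK2 (SAMD14) and RPE (KANSL1L), so their counts are uncertain. The plot of all lists shows the 10 enzymes as the list with the lowest median.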

How the data were processed

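RNA from 2 RIPs of MDA-231 cells was sequenced as 1 library each. The authors deposited whole-number read counts per gene row; cutadapt, HISAT2, SAMtools and the build hg38 are named in the submitters' processing notes, while versions, counter, gene models and strandedness were not given in the sources used here. Reads in introns or overlapping genes may therefore be part of a count.

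Rows were matched by symbol to the RefSeq table of GRCh38.p14 for class and position (39009 of 60649 rows). Rows repeating a name and its counts were used once (959 left out), and 427 rows sharing a name with different counts were given no class. Rows with at least 20 summed counts (25933) were scaled by edgeR 4.0.16 TMM factors. Log2 ratios had 0.5 counts added, and intervals were exact Clopper-Pearson or, between genes, exact conditional ones (scipy 1.17.1). The Clopper-Pearson intervals were tested on counts simulated with counting error alone, and those between genes were not tested. Neither kind covers the spread between repeated RIPs. No molecular identifiers are mentioned, so a read is not an independent molecule. No p-value was computed. Promoters came from RefSeq.

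The members and lists were chosen with earlier results of these data known. Named were the 10 enzymes, rows overlapping them with at least 10% of their counts, MMP14 and, per list, the 2 genes with the most counts and up to 2 with the interval bound farthest from 1. The isozymes of the compared pairs are named besides, and ENO3, PGLS, TALDO1, GYS1, PYGB, the single pseudogenes, the smaller overlapping genes and the neighbouring clone-named rows were named after their values were seen. Alternatives were other scales (DESeq2 1.42.0 size factors among them), minimums of 1 or 100 counts, 2 or 5 counts added, other fold thresholds, the span trend removed, pseudogene counts added and overlapped rows left out. The values of 1 gene of the lists are not reported here.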

Additional observations from a re-analysis of the deposited data

How the results depend on the processing

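The number of enzymes called higher in the mock stayed between 5 and 8 under the other scales except CPM, both count minimums, the span trend removed, and thresholds of 1-fold or 4-fold, and 0 were called higher in the MT1-MMP library in those settings. On the main TMM scale 16.2% and 7.24% of all tested protein-coding genes were called. With totals outside the ribosomal block 11.2% and 17.8% were. For the rest of those settings the share over all genes was not computed, so their numbers have none to be read against. By CPM the numbers were 2 and 6, beside 0.691% and 86.1% of protein-coding genes. The median turned to 2.03, and PGK1 (2.35), PKM (1.71), LDHA (0.90) and ENO1 (0.56) turned positive, by the shift of 4.24 that this scale adds. The median was -1.57 with totals outside the ribosomal block, -1.84 and -2.62 with minimums of 1 and 100 counts, which move the TMM scale, and -1.89 with the span trend removed. Leaving out the 5 enzymes with an unplaced neighbouring row was a choice made after seeing the data. It left 3 calls, beside 16.2% of all tested protein-coding genes, and a median of -2.53 over fewer genes. Leaving out rows overlapped in RefSeq removed no enzyme. With 2 or 5 counts added, 10 of 10 enzymes kept their rank by log2 ratio, and with the span trend removed 7 did, HK1 then lying below HK2 and GPI.

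With pseudogene counts added, ALDOA over GAPDH turned to 0.576 and PGK1 over GAPDH was 8.07. Outside the ribosomal block the enzymes' shares were 0.101% and 0.351%. Of the 79 other carbohydrate genes tested, 1 was called higher in the IgG RIP and 61 in the other by CPM. Of all tested protein-coding genes 0.691% and 86.1% were. With the span trend removed the numbers were 10 and 2. Those higher in the MT1-MMP library numbered 9 with totals outside the block, beside 17.8% of protein-coding genes, and 2 with the minimum of 100. The share over all genes was not computed with the span trend removed or with that minimum.

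An analysis by exon length was not run, since no exon lengths were used here. No paired analysis was possible because each group has 1 library. The IgG library limits the depth: the median tested protein-coding gene had 12.0 counts there, and HK1 had 83.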

Other observations

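Of 8 genes of gluconeogenesis 4 reached the minimum, and PCK1, FBP1, FBP2 and G6PC1, enzymes of glucose-making tissues, had 0 to 12 MT1-MMP counts and 0 IgG counts. PC, the pyruvate carboxylase, had 2058 and 41 counts (log2 ratio 0.11, 95% interval -0.32 to 0.61) and PCK2, the mitochondrial carboxykinase, 279 and 5 (0.15, -0.96 to 1.92). G6PC3, a ubiquitous glucose phosphatase (126 and 16, -2.58, -3.30 to -1.69), and SLC37A4, the transporter that feeds it (33 and 10, -3.85, -4.85 to -2.61), were higher in the mock. They were 2 of the 4 tested, and 0 were called higher in the MT1-MMP RIP. The shares over all tested protein-coding genes were 16.2% and 7.24%.

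Among 15 tested genes of glycogen and hexose branches 3 were higher in the IgG RIP and 1 in the other, with a median of -0.46. Over all tested protein-coding genes the shares called were 16.2% and 7.24%. GBE1, the glycogen branching enzyme, with a span of 272 kb, had 17898 and 113 counts (1.78, 1.52 to 2.07), and PMM2, a mannose phosphate mutase, 4164 and 60 (0.58, 0.23 to 0.99). AKR1B1, the aldose reductase (256 and 50, -3.18, -3.61 to -2.70), GYS1, the glycogen synthase (253 and 22, -2.03, -2.63 to -1.30), and PYGB, a glycogen phosphorylase (1816 and 129, -1.71, -1.96 to -1.44), were on the IgG side. Other genes overlap PC (LRFN4), PCK2 (NRL), SLC37A4 (TRAPPC4) and PYGB (ABHD12), so these counts are uncertain.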
